A study of Mus musculus with 4 samples.

Results

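The 9 genes described here encode the intracellular relay that turns recognition of a dying cell into engulfment: the scaffold proteins Elmo1 and Elmo2, their partner exchange factors Dock1 and Dock2, the GTPases Rac1 and Rac2 that these switch on, the further Rac exchange factor Vav1, and the adaptors Crk and Gulp1. They were taken as a list of gene symbols, drawn up with earlier results of these data known, and all 9 were found among the 52636 genes of each library. RNA was measured by bulk RNA-seq in cells from the corpus callosum, a large myelinated fibre tract between the cerebral hemispheres, in 2 libraries of AnnexinV-positive (dying) and 2 of AnnexinV-negative (living) cells. Annexin V binds phosphatidylserine on the outer face of dying cells. All 4 libraries came from mice labelled Mertk_KO, after the receptor tyrosine kinase Mertk by which phagocytes take up apoptotic cells, fed 0.2% cuprizone, a copper chelator toxic to oligodendrocytes, for 4 weeks. Mertk RNA was present in every library, at 62.6 and 53.6 RPKM in AnnexinV-positive and 18.8 and 29.9 RPKM in AnnexinV-negative libraries, so a loss of the gene's RNA, as the label could imply, was not seen. The deleted part of the gene is not given in the sources used here, and whether these transcripts are intact was not tested. The labels give no wild-type or untreated library, no age, and no number of animals per library, so a p-value here reflects the scatter of these libraries alone, some or all of which may be technical.

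In this pathway, receptors for phosphatidylserine recruit ELMO bound to a DOCK protein, and the ELMO-DOCK complex loads GTP onto Rac. Active Rac engages the WAVE complex, which stimulates the ARP2/3 complex to build the actin network of the phagocytic cup. Crk links phosphorylated p130Cas to DOCK180, the product of Dock1, and Gulp1 is the adaptor of a parallel route that starts at receptors such as Lrp1 and Megf10. Dock1, Rac1, Elmo2 and Crk are expressed in many cell types, whereas Dock2, Rac2 and Vav1 are known mainly from blood cells and, in the brain, from microglia, the resident macrophages.

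The RNA of Dock2 and Dock1 moved in opposite directions, and the 250 bases before the RefSeq start site (GRCm38.p6) of each are shown with those of Vav1, the blood cell exchange factor that moved with Dock2. Capitals mark GAGGAA or its reverse complement TTCCTC, the core of the PU box bound by the macrophage transcription factor PU.1, searched on both strands.
Dock2 promoter, chr11:34783906-34784155, minus strand: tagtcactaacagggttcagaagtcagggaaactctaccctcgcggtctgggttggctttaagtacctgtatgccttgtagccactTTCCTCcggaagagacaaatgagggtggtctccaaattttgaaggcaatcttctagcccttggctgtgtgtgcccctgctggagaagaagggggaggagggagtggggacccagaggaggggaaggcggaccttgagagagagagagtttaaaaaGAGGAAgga
Dock1 promoter, chr7:134670437-134670686, plus strand: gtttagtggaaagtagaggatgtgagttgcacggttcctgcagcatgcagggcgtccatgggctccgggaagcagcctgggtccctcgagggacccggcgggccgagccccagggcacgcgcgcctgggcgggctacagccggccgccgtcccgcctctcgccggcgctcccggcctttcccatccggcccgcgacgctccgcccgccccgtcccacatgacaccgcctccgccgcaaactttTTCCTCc
Vav1 promoter, chr17:57278850-57279099, plus strand: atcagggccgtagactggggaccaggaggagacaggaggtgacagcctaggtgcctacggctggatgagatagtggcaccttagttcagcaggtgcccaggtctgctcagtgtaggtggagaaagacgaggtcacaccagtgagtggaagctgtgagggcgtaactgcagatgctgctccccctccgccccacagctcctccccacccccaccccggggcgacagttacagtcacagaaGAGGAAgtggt
The Dock2 window held 2 matches, the Vav1 window 1 and the Dock1 window 1. On the gene's own strand a match began at position -9 in Dock2 and -11 in Vav1, counted from the last base before the start site as -1, and the Dock1 match lay on the other strand from position -7. Of 32851 RefSeq windows of this length, 23.3% held the letters on either strand. Windows were available for 7 of the 9 genes, 10 windows in all, and those of Elmo1, Elmo2, Gulp1 and Crk held no match. A match is a description of letters and says nothing of binding in these cells.

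Between paralogs, the longest stretch of coding sequence without a difference (GENCODE vM21) was 28 bases for Dock1 and Dock2, 22 bases for Elmo1 and Elmo2, 23 bases for Crk and Crkl, and 20 bases for Vav1 and Vav2. The read length is not given in the sources used here.

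Levels are given as RPKM, here reads per kilobase of exon scaled by a factor for each library, as deposited by the authors. An estimated 67400000 and 60100000 reads fell in genes in AnnexinV-positive libraries and 50500000 and 43200000 in AnnexinV-negative libraries. A single read per kb of exon equalled 0.00833 RPKM in AnnexinV-negative library 1 to 0.0116 RPKM in AnnexinV-positive library 2, so the scaling did not follow read numbers alone. The deposited values summed to 200350 and 217770 RPKM in AnnexinV-positive and 122940 and 120680 RPKM in AnnexinV-negative libraries. Pearson's r of log values across genes was 0.979 between the AnnexinV-positive and 0.951 between the AnnexinV-negative libraries, against 0.821 to 0.865 across groups. The 12 listed microglia markers summed to 5129 and 5030 RPKM in AnnexinV-positive and 1978 and 2454 RPKM in AnnexinV-negative libraries, and all 12 were higher on the deposited scale (limma, adjusted p under 0.05). On the TPM scale, which gives every library the same sum, 0 of the 12 were called higher (limma, 2 at an unadjusted p under 0.05), with a median log2 fold change of 0.42. The 12 markers of mature oligodendrocytes summed to 45.7 and 34.0 RPKM in AnnexinV-positive and 923 and 503 RPKM in AnnexinV-negative libraries, and all 12 were lower on both scales. No marker in the 12 cell type lists was under 0.1 RPKM in all 4 libraries. Fewer cells of a type and less RNA per cell cannot be told apart in such data, and the part of this shift in the results below was not tested beyond the comparison with microglia markers given there.

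On the deposited scale, 5 of the 9 genes were higher in AnnexinV-positive cells, 1 was lower, 2 did not pass the test and 1 was too low to test. The 5 were Dock2, Vav1, Rac2, Elmo1 and Rac1, with log2 fold changes of 1.44 to 0.60, and the lower gene was Dock1, at -1.55. Of the 5, Elmo1 and Rac1 turned to values under 0 when libraries were scaled to equal sums (TPM), and these 2 and Rac2 did so relative to microglia markers. Elmo2 and Crk did not pass, and Gulp1 stayed under the minimum of 1 RPKM in every library. The test was limma on log2(RPKM + 0.1) over 10927 genes with at least 1 RPKM in 2 libraries, with Benjamini-Hochberg adjusted p under 0.05 counted as a change. Of all genes tested, 30.8% were higher and 9.26% lower by the same rule, and their median log2 fold change was 0.45, beside a median of 0.67 for the 8 genes tested. The groups did not overlap for all 8, with 7 higher and 1 lower, where 60.9% of the genes tested were higher without overlap and 14.9% lower.

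**Figure D1:**
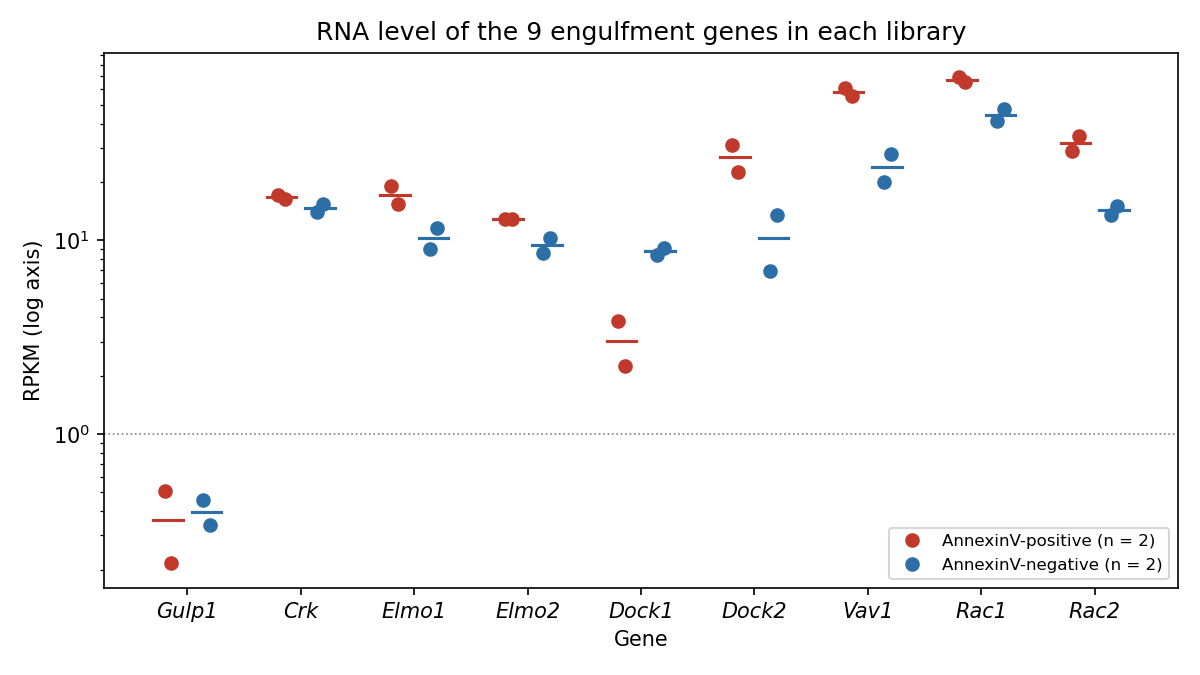
RPKM of each of the 9 genes on a log axis, with 1 point per library, bars at group means, and the dotted line at the 1 RPKM minimum for testing. Dock1 is the gene with both AnnexinV-positive libraries (2.25 and 3.82 RPKM) under both AnnexinV-negative ones (8.43 and 9.14 RPKM), and the groups of Gulp1 overlap.

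The DOCK exchange factors gave the widest contrast. Dock2, which activates Rac in blood cells and microglia (chromosome 11, 34226815 to 34783892, minus strand, GRCm38), had 31.1 and 22.6 RPKM in AnnexinV-positive libraries 1 and 2 and 6.98 and 13.5 RPKM in AnnexinV-negative libraries 1 and 2. The AnnexinV-positive libraries were both above the others, and the 2 AnnexinV-negative libraries were further apart on a log scale than for any other of the 8 genes tested. Dock2 rose by 1.44 on the log2 scale (SE 0.33, limma adjusted p 0.0149). Without AnnexinV-negative library 1 the difference was 0.97 (adjusted p 0.0164), and without AnnexinV-negative library 2 it was 1.91 (adjusted p 0.00115).

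Dock1, the founding DOCK protein of engulfment (chromosome 7, 134670654 to 135173639, plus strand), had 3.82 and 2.25 RPKM in AnnexinV-positive and 8.43 and 9.14 RPKM in AnnexinV-negative libraries. Its AnnexinV-positive libraries lay well under the others, on an estimated 3521 and 1807 reads. Dock1 fell by 1.55 on the log2 scale (SE 0.27, limma adjusted p 0.00629), and it passed the test in the same direction under all 14 other settings tried, with estimates of -1.18 to -2.73. It stood at percentile 6.07 of the log2 fold changes of all genes tested, and Dock2 at percentile 98.2.

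The 3 members of the DOCK-A subfamily, Dock1, Dock2 and Dock5, can be compared within a library, where the scaling between libraries has no part. Dock2 made up 88.9% and 90.9% of their summed RPKM in AnnexinV-positive libraries and 43.0% and 57.5% in AnnexinV-negative libraries. Dock5 was at 0.0587 and 0.00582 RPKM in AnnexinV-positive and 0.821 and 0.798 RPKM in AnnexinV-negative libraries, too low for the main test. With no filter on low values its log2 fold change was -2.81 (limma adjusted p 0.0161). The log2 ratio of Dock2 to Dock1 averaged 3.13 in AnnexinV-positive and 0.14 in AnnexinV-negative libraries, a difference of 2.99 against a pooled SD of 0.43 between replicates. The ratio is given with no test, since the exact permutation test of a single value cannot give a p below 0.33 with 2 against 2 libraries. The difference was 2.58 to 3.40 when any 1 library was left out.

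**Figure D2:**
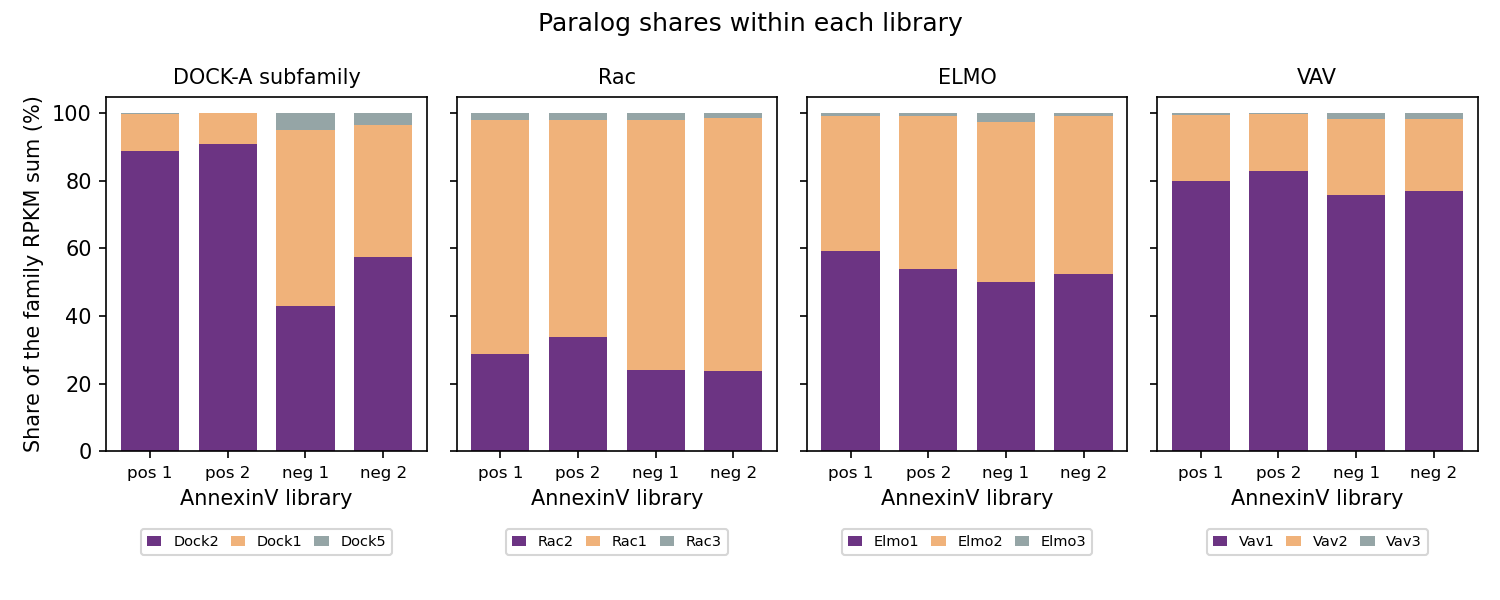
Share of each paralog in the summed RPKM of its family, in percent, for each of the 4 libraries (pos, AnnexinV-positive; neg, AnnexinV-negative). Dock2 takes 88.9% and 90.9% of the DOCK-A sum in the AnnexinV-positive libraries and 43.0% and 57.5% in the AnnexinV-negative ones, while the Rac, ELMO and VAV shares differ by less.

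The Rac GTPases were both higher, Rac2 by more. Rac2, the form found mostly in blood cells (chromosome 15, 78559167 to 78572783, minus strand), had 28.8 and 34.5 RPKM in AnnexinV-positive and 13.5 and 15.1 RPKM in AnnexinV-negative libraries. The groups were well apart, with the lowest AnnexinV-positive library above the highest AnnexinV-negative one. Rac2 rose by 1.14 (SE 0.19, limma adjusted p 0.00544). Rac1, the ubiquitous form and the highest of the 9 genes in every library, had 69.3 and 65.3 RPKM in AnnexinV-positive and 41.4 and 47.5 RPKM in AnnexinV-negative libraries. Rac1 rose by 0.60 (SE 0.18, limma adjusted p 0.0346), but did not pass without AnnexinV-positive library 1, AnnexinV-positive library 2 or AnnexinV-negative library 1 (adjusted p 0.173, 0.139 and 0.103).

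Of the 4496 exonic bases of Rac1 (chromosome 5, 143503634 to 143528036, minus strand), 2309, or 51.4%, are also exon of Daglb, a lipase gene on the opposite strand. The library kit does not keep strand, so in that stretch a read could belong to either gene, and Daglb had 44.7 and 37.6 RPKM in AnnexinV-positive and 15.2 and 19.6 RPKM in AnnexinV-negative libraries. The part of Daglb reads in the Rac1 values was not tested. Elmo1 shared 3.20% and Dock2 4.03% of exonic bases with antisense genes at or below 1.13 RPKM in every library, and the other 6 genes shared none.

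Rac2 made up 28.8% and 33.9% of the summed RPKM of Rac1, Rac2 and Rac3 in AnnexinV-positive and 24.1% and 23.8% in AnnexinV-negative libraries. The log2 ratio of Rac2 to Rac1 averaged -1.09 in AnnexinV-positive and -1.63 in AnnexinV-negative libraries, a difference of 0.54 with a pooled SD of 0.17 between replicates and no test, as for the DOCK ratio. Rac3, a form known from neurons, was low at 1.84 and 2.04 RPKM in AnnexinV-positive and 1.08 and 0.892 RPKM in AnnexinV-negative libraries, and rose by 0.92 (limma adjusted p 0.0243).

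The ELMO scaffolds stood close together. Elmo1 (chromosome 13, 20090596 to 20608353, plus strand) had 19.1 and 15.3 RPKM in AnnexinV-positive and 9.06 and 11.6 RPKM in AnnexinV-negative libraries, without overlap. It rose by 0.73 (SE 0.21, limma adjusted p 0.0321), a call that was lost without AnnexinV-positive library 1, AnnexinV-positive library 2 or AnnexinV-negative library 1 (adjusted p 0.184, 0.0640 and 0.0908). Elmo2 (chromosome 2, 165288031 to 165326479, minus strand) had 12.9 and 12.8 RPKM in AnnexinV-positive and 8.55 and 10.3 RPKM in AnnexinV-negative libraries. The groups did not overlap, but the difference of 0.45 on the log2 scale did not pass (95% interval 0.01 to 0.89, limma adjusted p 0.0927). Elmo1 made up 59.2% and 54.0% of the ELMO family sum in AnnexinV-positive and 50.1% and 52.5% in AnnexinV-negative libraries, and the log2 ratio of Elmo1 to Elmo2 differed by 0.29 between groups, beside a pooled SD of 0.16. Elmo3 was between 0.162 and 0.467 RPKM in the 4 libraries, too low for the main test, and without the filter was at -0.14 (limma adjusted p 0.862).

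Vav1, the exchange factor that couples immune receptors to Rac (chromosome 17, 57279100 to 57328031, plus strand), was next to Rac1 at the top of the 9 genes in every library. It had 61.0 and 55.7 RPKM in AnnexinV-positive and 19.98 and 27.9 RPKM in AnnexinV-negative libraries, with a wide gap between the groups. Vav1 rose by 1.30 (SE 0.21, limma adjusted p 0.00540), and Vav2, its broadly expressed paralog, by 0.94 (limma adjusted p 0.0186) with 15.0 and 11.2 RPKM in AnnexinV-positive and 5.89 and 7.64 RPKM in AnnexinV-negative libraries. Vav3 had 0.252 and 0.174 RPKM in AnnexinV-positive and 0.439 and 0.623 RPKM in AnnexinV-negative libraries, too low for the main test. Without the filter it was at -1.01 (limma adjusted p 0.111). Vav1 made up 80.02% and 83.0% of the family sum in AnnexinV-positive and 75.9% and 77.1% in AnnexinV-negative libraries.

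Of the adaptors, Crk did not pass the test on the deposited scale and Gulp1 was too low to be tested. Crk (chromosome 11, 75679259 to 75706908, plus strand) had 17.2 and 16.4 RPKM in AnnexinV-positive and 13.98 and 15.4 RPKM in AnnexinV-negative libraries, which were close but did not overlap. Its log2 fold change was 0.19 (95% interval -0.22 to 0.61, limma adjusted p 0.388). That of its paralog Crkl was -0.07 (limma adjusted p 0.769). Gulp1 (chromosome 1, 44551511 to 44796838, plus strand) had 0.508 and 0.215 RPKM in AnnexinV-positive and 0.456 and 0.339 RPKM in AnnexinV-negative libraries, on an estimated 189 and 70 reads in AnnexinV-positive and 206 and 123 reads in AnnexinV-negative libraries. The groups overlapped. With no filter on low values the Gulp1 difference was -0.17 (95% interval -1.16 to 0.82, limma adjusted p 0.812), an interval that leaves room for a change in either direction.

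The levels fell into a fairly steady order. Rac1 and Vav1 held ranks 1 and 2, and Gulp1 rank 9, in all 4 libraries, and Elmo2 and Dock1 came low in each. Dock2 held ranks 3 and 4 in the AnnexinV-positive libraries and 8 and 5 in the AnnexinV-negative ones, whereas Crk held ranks 6 and 5 in the AnnexinV-positive libraries and 3 in both AnnexinV-negative ones. Rac2 and Dock2 changed places between the AnnexinV-positive libraries, as Elmo1 and Crk did, so these neighbours cannot be ordered there. Exonic lengths cover all annotated exons of a gene, up to 12580 bases for Elmo1, and a gene with rarely used long exons reads lower per length.

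The size and in part the direction of these differences depended on how the libraries were scaled to each other. The deposited scale left a median log2 fold change of 0.45 over all genes tested. With each library centred on its median log2 value the median was 0.13, and 2 of the 8 genes were higher (Rac2 and Vav1) and 1 lower (Dock1), where 10.4% of all genes were higher and 10.8% lower. On the TPM scale the median was -0.32, none of the 8 was higher (limma, also 0 at an unadjusted p under 0.05) and Dock1 was lower, where 1.03% of all genes were higher and 19.1% lower. Elmo1, Elmo2, Rac1 and Crk then had log2 fold changes of -0.04, -0.33, -0.18 and -0.58, and Dock2, Vav1 and Rac2 of 0.67, 0.53 and 0.37.

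With each library centred on the mean of the 12 microglia markers, the difference of a gene is read relative to those markers. None of the 8 was higher (limma, 0 at an unadjusted p under 0.05) and 4 were lower, where 0.119% of all genes were higher and 50.4% lower. Dock2, Vav1 and Rac2 then had log2 differences of 0.26, 0.13 and -0.04, and the 95% intervals were -0.44 to 0.97, -0.33 to 0.58 and -0.52 to 0.44 in the same order. Relative to the microglia markers, Crk was at -0.98 (limma adjusted p 0.00854), Elmo2 at -0.73 (0.0195), Rac1 at -0.58 (0.0352) and Dock1 at -2.73 (0.00145). Elmo1 was at -0.44 (95% interval -0.91 to 0.02, limma adjusted p 0.0950).

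**Figure D3:**
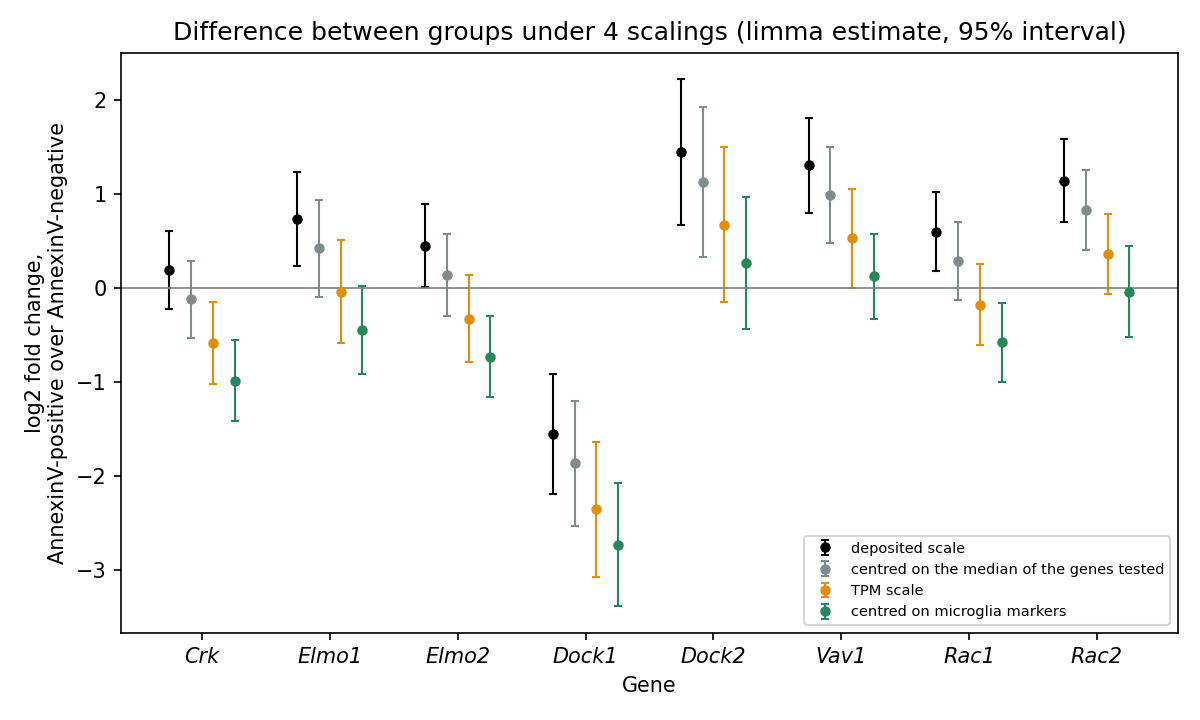
Log2 fold change of the 8 tested genes, AnnexinV-positive over AnnexinV-negative, as limma estimates with 95% intervals under 4 scalings of the libraries. Dock1 stays under 0 in all 4, while Dock2, Vav1 and Rac2 lie at 1.44, 1.30 and 1.14 on the deposited scale and at 0.26, 0.13 and -0.04 relative to microglia markers.

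Dock2, Rac2 and Vav1 are also expressed by other blood cells, whose markers were far lower than those of microglia. The 8 markers of T or NK cells summed to 1.22 and 2.96 RPKM in AnnexinV-positive and 9.81 and 3.94 RPKM in AnnexinV-negative libraries. The neutrophil, monocyte and B cell lists were each made up largely of 1 gene. Of the 6 neutrophil markers, Csf3r was higher, with 56.4 and 51.8 RPKM in AnnexinV-positive and 19.6 and 28.6 RPKM in AnnexinV-negative libraries, and 4 were lower without overlap, S100a8 and S100a9 among them (log2 fold changes of -4.52 and -4.54, limma adjusted p 0.00324 and 0.000645). The 5 neutrophil markers other than Csf3r summed to 0.474 and 0.586 RPKM in AnnexinV-positive and 15.6 and 6.58 RPKM in AnnexinV-negative libraries. Of the 6 monocyte markers, Fn1 overlapped between groups, and the other 5 summed to 2.30 and 2.28 RPKM in AnnexinV-positive and 5.48 and 3.33 RPKM in AnnexinV-negative libraries, with 3 of them lower without overlap. Of the 5 B cell markers, Ighm and Cd79b were higher, Ighm with 68.5 and 75.3 RPKM in AnnexinV-positive and 30.01 and 33.9 RPKM in AnnexinV-negative libraries, and Cd79a and Ms4a1 were lower without overlap but too low to test. The 7 border macrophage markers summed to 15.2 and 14.8 RPKM in AnnexinV-positive and 5.75 and 4.56 RPKM in AnnexinV-negative libraries. All 7 were higher without overlap, where 60.9% of all genes tested were, but most of the 7 were too low to test. The 2 tested were called higher on the deposited scale (limma, adjusted p under 0.05), and 0 on the TPM scale. Like Dock1, the markers of several other cell types were lower in AnnexinV-positive cells. Those of oligodendrocyte precursors were lower in 7 of 8 tested. They summed to 19.5 and 16.9 RPKM in AnnexinV-positive and 160 and 127 RPKM in AnnexinV-negative libraries. Cspg4, the highest of them in AnnexinV-positive libraries, overlapped between groups (10.08 and 12.03 against 5.06 and 11.08 RPKM). Olig1 (66.1 and 45.4 RPKM), Sox10 and Olig2 were the highest in AnnexinV-negative libraries. Pdgfra was too low to test (0.251 and 0.138 against 0.864 and 1.55 RPKM). How far this sum reflects precursors rather than mature oligodendrocytes was not tested. Markers of astrocytes, lower in 8 of 10, summed to 34.4 and 50.8 RPKM in AnnexinV-positive and 103 and 75.4 RPKM in AnnexinV-negative libraries. Those of endothelial cells, lower in 7 of 8 tested, summed to 8.74 and 13.99 RPKM in AnnexinV-positive and 56.1 and 56.1 RPKM in AnnexinV-negative libraries. Those of mural cells or fibroblasts summed to 13.5 and 5.67 RPKM in AnnexinV-positive and 42.2 and 26.7 RPKM in AnnexinV-negative libraries, and those of neurons to 1.97 and 1.89 RPKM in AnnexinV-positive and 16.0 and 10.7 RPKM in AnnexinV-negative libraries. Their part in the differences of the 9 genes was not tested.

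By likeness of pattern over the 4 libraries (Euclidean distance of log2 values centred on each gene's mean), the tested genes nearest to Dock2 were Stab1, a scavenger receptor (distance 0.0776), Lrrk1 (0.108) and Ptgs2, a prostaglandin synthase (0.155). Stab1 had 24.6 and 16.9 RPKM in AnnexinV-positive and 5.61 and 10.4 RPKM in AnnexinV-negative libraries. The nearest to Dock1 were Pik3r3 (0.120), Tom1l2 (0.158) and Heg1 (0.200). Likeness over 4 libraries says little beyond the difference between the groups and the gap between replicates.

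The rest of the pathway was described from lists of 89 further genes, of which 74 were tested. Of these, 46 were higher and 12 lower on the deposited scale (limma, adjusted p under 0.05), where 30.8% of all genes tested were higher and 9.26% lower. Their median log2 fold change was 0.82, beside 0.45 for all genes tested. On the centred scale 17 were higher and 13 lower, where 10.4% of all genes were higher and 10.8% lower. On the TPM scale 0 were higher (limma, 3 at an unadjusted p under 0.05) and 16 lower, where 1.03% of all genes were higher and 19.1% lower. Relative to the microglia markers 0 were higher (limma, 0 at an unadjusted p under 0.05) and 21 lower, where 0.119% of all genes were higher and 50.4% lower. The 15 left out by the filter included 10 that were lower without overlap between groups and 1 that was higher. Without the filter, 5 of the 15 were called lower and 0 higher (limma, adjusted p under 0.05). The matching shares of all genes left out by the filter were not counted, so no trait of these 15 is read from this. All 12 tested genes lower on the deposited scale passed as lower on each of these 3 scales too, as did Dock1. The counts for single lists below include the members and are on the deposited scale. They are to be read beside the 30.8% of all genes tested that were higher and the 9.26% that were lower.

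Of 9 tested DOCK genes, 4 were higher and 2 lower. Dock8, the exchange factor of lymphocytes and microglia that acts on Cdc42, rose by 1.24, with 22.4 and 19.0 RPKM in AnnexinV-positive and 7.24 and 10.4 RPKM in AnnexinV-negative libraries. Dock11 rose by 1.10 and Dock4 by 1.04. Dock9, another Cdc42 exchange factor, fell by 1.64, with 0.896 and 0.696 RPKM in AnnexinV-positive and 2.26 and 3.15 RPKM in AnnexinV-negative libraries. Dock10 (-0.29) and Dock6 (0.36) were among the 3 that did not pass. Dock3 was under 0.5 RPKM in every library, and without the filter it was lower, with a log2 fold change of -1.74 (limma adjusted p 0.0365).

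Among exchange factors for Rac 6 of 9 were higher and 1 lower. Def6, an exchange factor of immune cells, rose by 1.30, while Tiam2, known from neurons, fell by 2.90. Their median was 0.94, and -0.24 relative to the microglia markers. Of 10 tested GTPase-activating protein and GDI genes, which switch off or sequester Rac, 10 were higher on the deposited scale, with Arhgap22 (1.41), Arhgap25 (1.28) and Arhgdib (1.14) first by p. Of the exonic length of Arhgap22, 36.9% is also exon of another gene, whose part in the Arhgap22 values was not tested. Chn1 of the same list was too low to test, with 0.218 and 0.182 RPKM in AnnexinV-positive and 1.16 and 0.816 RPKM in AnnexinV-negative libraries, and without the filter it was lower, with a log2 fold change of -1.84 (limma adjusted p 0.0246). The median of the 10 was 0.95 on the deposited scale, 0.19 on the TPM scale and -0.23 relative to the microglia markers.

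The Crk and p130Cas list split evenly, with 3 of 11 higher and 3 lower. Bcar1, which encodes p130Cas, had a log2 fold change of -2.71, the adaptor Nck2 of -2.34 and Efs, a relative of p130Cas, of -2.03. Bcar1 had 0.440 and 0.283 RPKM in AnnexinV-positive and 3.08 and 2.69 RPKM in AnnexinV-negative libraries. The median of the list was 0.19 on the deposited scale and turned to -0.98 relative to the microglia markers.

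The WAVE complex, which carries the signal of Rac to actin, had 6 of 10 members higher and 3 lower. The 3 lower genes each have a paralog that was higher, while Abi1 (0.82) and Abi3 (1.24) were both higher and Abi2 (-0.09) did not pass. Exons of Abi3 overlap those of 3 other genes, by 116.9% of its exonic length when counted gene by gene. The part of their reads in the Abi3 values was not tested. Nckap1 fell by 2.73 while Nckap1l, its form in blood cells, rose by 1.28. Nckap1 had 1.52 and 0.866 RPKM in AnnexinV-positive and 8.32 and 8.09 RPKM in AnnexinV-negative libraries. Cyfip2 fell by 1.85 while Cyfip1 rose by 1.12, and Wasf1 fell by 3.33 while Wasf2 rose by 1.03 (limma adjusted p 0.00185 and 0.00629). Relative to the microglia markers, Nckap1l, Cyfip1 and Wasf2 were at 0.10, -0.06 and -0.15, and Nckap1, Cyfip2 and Wasf1 at -3.91, -3.03 and -4.51. The difference within these 3 pairs was not tested.

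Of 9 ARP2/3 genes 8 were higher, among them Arpc2 (1.15), Arpc1b (1.11) and Arpc4 (0.98), and Arpc1a was at -0.58 (limma adjusted p 0.0754). The ARP2/3 median was 0.98, and -0.19 relative to the microglia markers. Of 3 tested PAK kinases, effectors of Rac, Pak1 fell by 0.73, and Pak2 (0.56) and Pak4 (0.43) did not pass. Of 8 tested receptors tied to these adaptors, 4 were higher and 1 lower. Megf10, a receptor of astrocytes that signals through Gulp1, fell by 3.61, while Mertk itself rose by 1.28 and Itgb5, a subunit of an integrin for the bridging protein Mfge8, by 1.30. Lrp1, also named above for the Gulp1 route, rose by 1.16 (limma adjusted p 0.0211) and was at -0.015 relative to the microglia markers. It had 38.5 and 41.0 RPKM in AnnexinV-positive and 12.9 and 24.2 RPKM in AnnexinV-negative libraries. The Mertk value sums reads over all exons of the gene named in the genotype label.

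**Figure D4:**
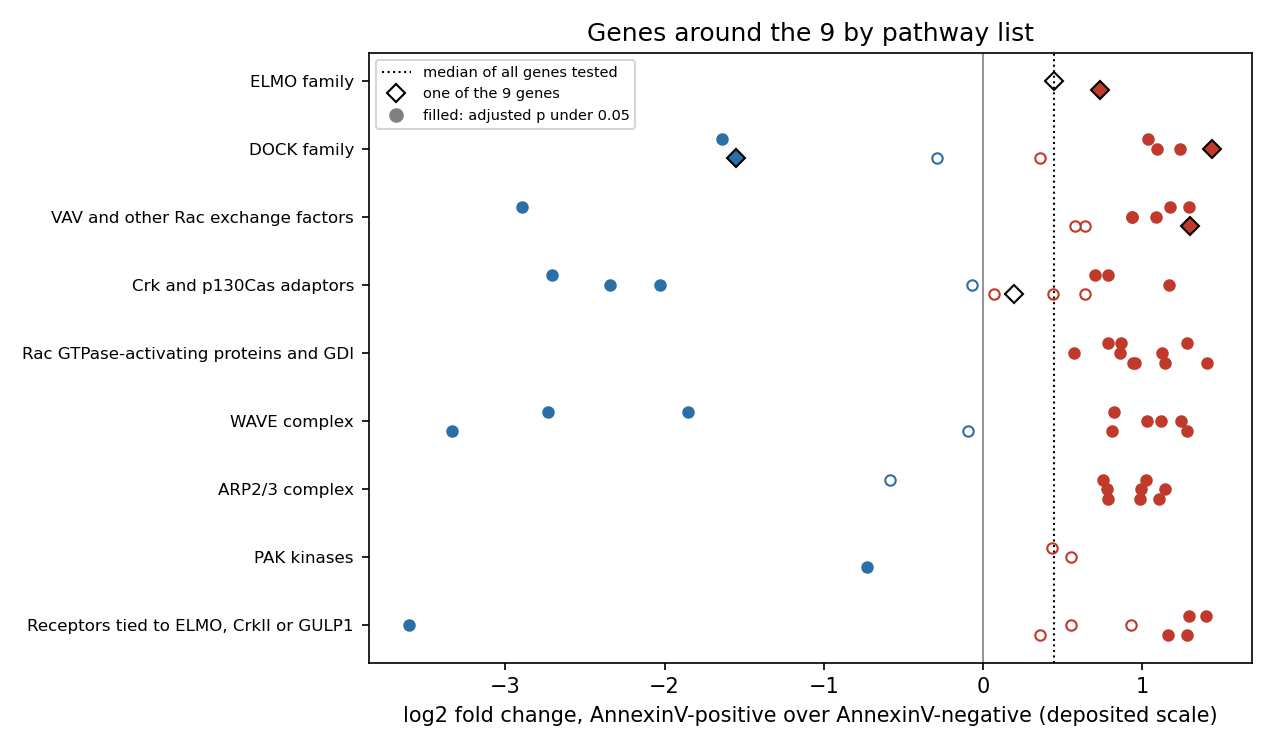
Log2 fold change on the deposited scale of tested genes by pathway list, with 1 point per gene, filled where the adjusted p was under 0.05, and diamonds for those of the 9 genes that are in the lists drawn. The dotted line at 0.45 is the median of all genes tested, and the lists of WAVE, Crk, DOCK, exchange factor and receptor genes hold points far to both sides.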

How the data were processed

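Per the labels, RNA-seq libraries were made with the Illumina TruSeq v2 kit, which keeps no strand. Per the submitters' processing notes, the authors aligned reads with GSNAP to mm10. The counter, annotation and filters are not stated there. The deposited values, 1 per Ensembl gene, were read as RPKM: 79.6% to 83.6% of low values per library were whole multiples, within 0.01 of a read, of a step inverse to exonic length in GENCODE vM21. Library medians against the geometric mean were equal (0.03 on the log2 scale), as size factors set by the authors would give. Read numbers were estimated from that step. GENCODE vM21 (GRCm38, as mm10) matched 52403 of 52636 genes.

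Values were tested as log2(RPKM + 0.1), which understates changes of low genes, with limma 3.58.1 in R 4.3.3, an intensity trend and no covariate, on 4 libraries grouped by title. The fit was checked on simulated data. Alternatives were other scalings, pseudocounts of 1 and 0.01, other filters, no trend, each library left out (genes tested held) and a replicate block. The crossed block was chosen after seeing the data.

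The members and lists were chosen with earlier results of these data known. Named genes were the members, their paralogs, the 3 genes of each list with the smallest p, and the 3 genes nearest in pattern to the members with the largest rise and fall. Daglb, Nckap1l, Cyfip1, Wasf2, Abi1, Abi2, Abi3, Chn1, Arpc1a, Lrp1 and the cell type markers given by name were named after their values were seen. The results of 1 pathway list, 2 single genes and 1 sequence comparison are not reported here, though counts over the pathway genes and marker lists include that list and those genes.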

Additional observations from a re-analysis of the deposited data

How the results depend on the processing

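Over the 14 other settings, Dock1 kept its direction and its side of the threshold in all 14, Rac2 and Vav1 in 12 each, Crk and Elmo2 in 11 each, Dock2 in 10, Elmo1 in 6 and Rac1 in 5. In the order centred, TPM and microglia-marker scale, 2, 0 and 0 members were higher, 17, 0 and 0 other pathway genes and 1133, 113 and 13 of all genes (limma). On the microglia-marker scale 4 members, 21 other pathway genes and 5510 of all genes were lower, and on the TPM scale 2091 of all genes. With no filter beyond a value above 0, 2 members, 28 other pathway genes and 1865 of all genes were higher and 2489 of all genes lower, with more genes to adjust over, and Dock2 had an adjusted p of 0.0509 (limma). With a minimum of 5 RPKM, 2 other pathway genes and 270 of all genes were lower, since fewer genes were tested. On the TPM and microglia-marker scales Elmo1 turned to -0.039 and -0.44, Elmo2 to -0.33 and -0.73, and Rac1 to -0.18 and -0.58 in log2 fold change. Rac2 turned to -0.039 on the microglia-marker scale, and Crk to -0.12, -0.58 and -0.98 on the centred, TPM and microglia-marker scales. The scalings differ by 1 factor per library. On the centred and microglia-marker scales this factor moves all genes together. For the TPM scale 0.1 was added after scaling, so genes of low level moved by other amounts. Rac1 went from 0.60 to -0.18 in log2 fold change there, and Megf10 from -3.61 to -5.01.

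Leaving out 1 library gave 3 to 5 members higher and 1 lower in each case, 25 to 49 other pathway genes higher and 11 to 13 lower, and 1297 to 3356 of all genes higher and 787 to 1060 lower. The fewest of all genes higher, 1297 and 1749, came without AnnexinV-positive library 2 and 1. The Rac2 to Rac1 ratio differed by 0.36 to 0.71, and the Elmo1 to Elmo2 ratio by 0.13 to 0.44.

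Same-numbered libraries did not deviate together (r = -0.215 across genes). The labels do not say whether they share animals, and a single correlation over genes that vary together cannot decide it. With the replicate block 3 members were higher and 1 lower, and Elmo1 and Rac1 did not pass (limma adjusted p 0.0680 and 0.0918). With the crossed block, 6 members were higher and 1 lower. With 2 libraries a group, the spread between them limits the precision, for Gulp1 too, whose fewest estimated reads were 70.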
